A study of Mus musculus with 96 samples.

Results

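The control organoids of this series were 3-dimensional cultures of mouse intestinal epithelium from C57BL/6 animals, labelled APC+/+;BMAL1+/+, with a normal circadian clock by their label and no mutant allele. They were grown in ENR medium, treated for 1 h with 0.1 µM dexamethasone, moved to fresh medium and sampled at steps of 2 h between 24 and 46 h. Dexamethasone is a glucocorticoid that sets the clocks of cultured cells to a common phase, and every group of the study received it. Members were taken by label, as all libraries of this genotype in the deposited TPM table, which gave 22 of the 88 libraries in the study's 4 tables. TPM is a share of all transcripts in a library, corrected for transcript length and library size. Of the 12 time points, 10 have 2 libraries and 2 (28 and 44 h) have 1. Each genotype had 2 organoid lines by the labels, which do not tie a library to its line, so p-values measure only the spread between libraries, which may be technical. Organoids labelled as Bmal1 null with wild-type Apc, treated alike and held in 22 libraries of their own, are used below as the comparison.

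The circadian clock of a mammalian cell is a feedback loop of transcription. BMAL1 (gene symbol Arntl) and CLOCK bind E-boxes and turn on the Per and Cry genes, whose proteins return to inhibit them, and the REV-ERB genes Nr1d1 and Nr1d2, whose proteins repress Arntl through REV-ERB response elements (RRE). The PAR bZIP factors DBP, TEF and HLF and their antagonist NFIL3 act through D-boxes on output genes. In the gut epithelium the clock is known for timing absorption, digestion and regeneration.

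Uniquely mapped reads numbered 29.03 to 46.2 M per library (mean 35.2 M ± 4.84, SD, n = 22). Epithelial markers defined the cultures: Epcam, a surface protein of epithelia, averaged 1680 TPM (1568 to 1782), and all 11 intestinal epithelium markers were tested. Of the other cell types, all 4 endothelial, 4 smooth muscle, 5 neural and 7 gastric markers fell under the filter of a mean of 1 TPM, as did 6 of 8 fibroblast and 4 of 7 immune markers. The summed level in any library was at most 0.620 TPM for the endothelial and for the smooth muscle list, 1.15 TPM for neurons and glia, 3.10 TPM for gastric, 5.98 TPM for immune and 14.6 TPM for fibroblast markers, and Adgre1, which marks macrophages, was listed at 0 in every library. The 5 libraries of lowest length slope are called those that stand apart (replicate 2 of 24, 36, 40 and 46 h, and replicate 1 of 38 h). The length slope relates a gene's log2 deviation from its mean over control libraries to log2 transcript length. It was -0.177 to -0.0975 in these 5 and -0.0494 to 0.118 in the other 17. The cut at 5 was chosen, so these ranges cannot overlap. The slope followed the first principal component, which held 65.2% of the variance. Counts of calls, and values whose call changes, are therefore given with and without these 5. Library numbers in the titles rise with time, from 49 to 58 at 24 to 28 h and from 85 to 94 at 42 to 46 h, so library order and time cannot be told apart.

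Promoter sequences show which clock elements lie close to the starts of these genes. RefSeq windows (build GRCm38.p6) of 250 bases before and 50 after a gene's start were searched on both strands. Of 21 core clock genes 18 matched the table, and Per2 and Bhlhe40 were among those that did not. The motifs were the E-box CACGTG, its variant CACGTT, the D-boxes TTATGTAA and TTACGTAA, and the RRE TAGGTCA. The E-box is held by 5 of the 18 clock genes, Ciart, Cry1, Per1, Tef and Bhlhe41, by 1134 of the 9402 genes tested for a rhythm that are in the table (12.1%), and by 7.15% of all 32851 windows. The variant is in 4 of the 18, in 6.46% of those tested genes and in 4.68% of all windows. The 18 include clock genes that averaged under 1 TPM and were not tested for a rhythm, such as Bhlhe41 (0.0355 TPM) and Hlf (0.11 TPM). The 9402 hold tested genes alone, so the 2 sets are not alike in this. The stretches below show matches in capitals, read on the gene's strand, and are given because the genes belong to different arms of the clock described below.
Nr1d1, variant E-box on the opposite strand, chr11:98775378-98775435, minus strand: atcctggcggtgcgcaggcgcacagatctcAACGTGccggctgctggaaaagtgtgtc
Tef, E-box before the upstream start, chr15:81802516-81802581, plus strand: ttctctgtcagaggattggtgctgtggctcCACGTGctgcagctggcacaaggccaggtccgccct
Tef, E-box before the downstream start, chr15:81811246-81811311, plus strand: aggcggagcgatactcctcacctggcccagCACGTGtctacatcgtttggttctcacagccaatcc
Ciart, E-boxes, chr3:95882237-95882374, minus strand: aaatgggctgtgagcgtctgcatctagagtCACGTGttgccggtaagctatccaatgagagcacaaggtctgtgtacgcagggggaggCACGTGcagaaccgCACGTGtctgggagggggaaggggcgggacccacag
Cry1, E-box and variant E-box, chr10:85185079-85185163, minus strand: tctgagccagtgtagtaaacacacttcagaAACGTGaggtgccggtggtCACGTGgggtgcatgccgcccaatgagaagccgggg
Per3, D-boxes, chr4:151044786-151044900, minus strand: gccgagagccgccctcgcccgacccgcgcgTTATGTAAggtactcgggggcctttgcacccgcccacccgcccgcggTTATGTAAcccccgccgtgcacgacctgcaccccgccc
Nfil3, RRE on the opposite strand, chr13:52981040-52981081, minus strand: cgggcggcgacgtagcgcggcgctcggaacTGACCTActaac
Arntl, RRE after the start, chr7:113207531-113207557, plus strand: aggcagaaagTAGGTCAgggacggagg
Ciart holds 3 E-boxes in its window and Per3 holds 2 D-boxes, the only clock gene with a D-box match, a motif in 0.585% of those tested genes and 0.938% of all windows. The RRE is in Arntl and Nfil3 alone of the 18, in 2.36% of those tested genes and in 2.61% of all windows. The D-box TTACGTAA and the glucocorticoid response element matched no clock gene. A match is a description of these letters and not evidence of binding.

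Few clock genes of control organoids passed a test of a daily rhythm, and Nr1d1 had the earliest fitted peak of those that did. A cosine of 24 h period was fitted to log2(TPM + 1) over the 22 libraries and tested in limma with Benjamini-Hochberg adjustment over all 12570 genes of 1 TPM or more on average. Of 16 core clock genes tested, 4 passed at an adjusted p under 0.05, among them Nr1d1, Dbp and Tef, where 7 of all genes passed, or 0.0557% (1539, or 12.2%, at an unadjusted p under 0.05). Of the 1539 genes, 1108 had a fitted peak no more than 3 h away from 29 h. Another 363 peaked equally close to 41 h. Among the 16 clock genes the numbers were 9 and 2, so a peak near 29 h was not particular to the clock. The cause of this shared timing was not tested. The median amplitude was 0.30 over the 16, against 0.09 over all genes, on the log2 scale. A single cycle was sampled, so a cosine cannot be told from another change that happens once.

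Nr1d1, which encodes the repressor REV-ERB alpha (GRCm38 chr11:98767932-98775333, minus strand), ranged from 7.65 to 28.2 TPM with a median of 16.1. It was highest at 24, 26 and 28 h, at 27.6 and 19.9 TPM, at 25.2 and 28.2 TPM, and at 26.1 TPM. It was lowest at 36 and 38 h, at 10.7 and 7.78 TPM and at 7.65 and 13.04 TPM, so the libraries of those hours do not overlap. By 46 h it had returned to 20.3 and 14.03 TPM. The fitted peak was at 24.99 h (SE 0.559), the earliest of the list, with an amplitude of 0.55 ± 0.08 (SE, n = 22), a swing of 2.16-fold from peak to trough (limma, adjusted p = 0.0107). Without the 5 libraries that stand apart the amplitude was 0.54 (adjusted p = 0.000895). Nr1d2, its paralog REV-ERB beta, ranged from 4.30 to 14.7 TPM with a median of 10.6, peaked at 28.6 h and had an amplitude of 0.51 ± 0.10, which did not pass (adjusted p = 0.101).

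The activators had small or uncertain amplitudes. Arntl ranged from 11.3 to 20.7 TPM (median 14.5), with its lowest time-point means at 28 and 30 h (12.2 and 12.4 TPM) and its fitted peak at 39.9 h (amplitude 0.14 ± 0.07, adjusted p = 0.494). Clock, the partner of BMAL1, ranged from 5.55 to 20.7 TPM (median 12.8) and had an amplitude of 0.28 ± 0.13 (adjusted p = 0.448). The amplitude of Arntl was 0.22 without the 5 libraries and that of Clock 0.12, neither called. Npas2, a relative of Clock, had an amplitude of 0.01 ± 0.09 at a mean of 33.2 TPM, and its peak time is not defined.

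The repressors of the Per and Cry families had their highest time-point means at 30 to 34 h. Time-point means of Per2 went from 9.21 TPM at 24 h to 17.8 TPM at 34 h and 9.01 TPM at 46 h. Those of Per3 went from 3.03 TPM at 24 h to 4.88 TPM at 30 h and 2.56 TPM at 38 h. Fitted peaks were at 30.5 h for Per3 and 31.5 h for Per2, with amplitudes of 0.32 ± 0.06 and 0.37 ± 0.09, not called with all libraries (adjusted p = 0.0888 and 0.203). Cry2 and Cry1, the cryptochromes, had time-point means of 4.86 and 18.1 TPM at 24 h and of 9.96 and 32.1 TPM at 34 h. Cry2 peaked at 32.1 h and Cry1 at 34.4 h (amplitudes 0.34 ± 0.07 and 0.28 ± 0.06, both adjusted p = 0.101). Per3 and Cry1 were called as well without the 5 libraries (adjusted p = 0.0379 and 0.0445), which made 6 of 16. Over all genes 10 were then called, among them 5 of the original 7. Per1, which glucocorticoids also induce, had a smaller amplitude of 0.19 ± 0.08 (adjusted p = 0.420), as did the E-box repressors Ciart at 0.19 ± 0.06 (adjusted p = 0.356) and Bhlhe40 at 0.10 ± 0.06 (adjusted p = 0.5996).

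**Figure D1:**
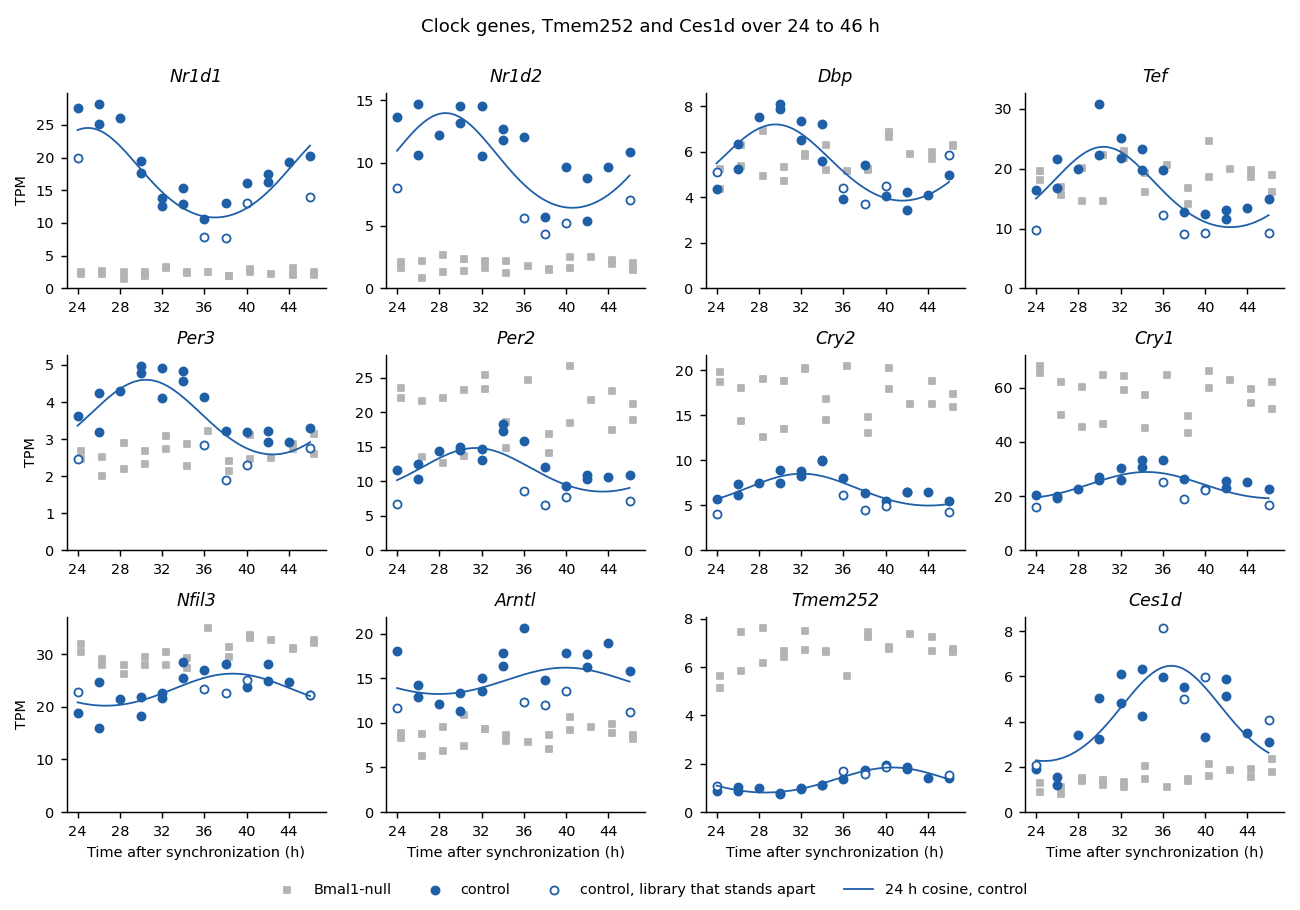
TPM of 10 clock genes, Tmem252 and Ces1d by time after synchronization, 1 point per library, with the cosine fitted to control libraries. Filled circles are control libraries, open circles the 5 that stand apart, and grey squares Bmal1-null libraries. Nr1d1 is highest at 24 to 28 h, and it stays near 2.39 TPM in Bmal1-null organoids.

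Of the output factors of the clock, Tef ranged from 9.08 to 30.9 TPM (median 15.7) and Dbp from 3.44 to 8.10 TPM (median 5.17). Tef peaked at 30.4 h with an amplitude of 0.57 ± 0.09 (2.20-fold) and Dbp at 29.6 h with 0.38 ± 0.06 (1.69-fold), both at adjusted p = 0.0154. Their amplitudes were 0.47 and 0.39 once the 5 libraries were removed (adjusted p = 0.00103 and 0.0282). Nfil3, their antagonist, peaked at 38.7 h with 0.18 ± 0.05 and was not called (adjusted p = 0.225). Nr1d1, Dbp and Ces1d also passed when a straight line in time was added to the cosine (adjusted p = 0.0438, 0.0427 and 0.0427), and Tef, Tmem252 and Ano1 did not. With that line the amplitude of Tef was 0.68 and that of Tmem252 0.30, close to or above the values without it (adjusted p = 0.188 each), while that of Ano1 went from 0.62 to 0.30 (adjusted p = 0.949).

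Not every step in the order of fitted peaks exceeds its combined SE. This SE treats the 2 peaks of a step as independent. Both were fitted to the same 22 libraries, so it need not be the error of the gap. Among the 13 clock genes whose amplitude was more than 2 times its SE, the gap from Cry1 to Nfil3 was 4.22 h (combined SE 1.29) and from Nr1d1 to Clock 3.17 h (combined SE 1.80). The gap was smaller from Dbp to Tef, at 0.796 h (combined SE 0.791) and from Ciart to Per3, at 0.0087 h (combined SE 1.37). In the 5 libraries that stand apart, 12 of the 16 genes were below the other library of the same time point in every case, while Dbp was below in 1 of 5. These 5 libraries were picked by their length slope, and the share over all genes was not counted. The 12 of 16 is therefore not shown to be particular to clock genes.

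**Figure D2:**
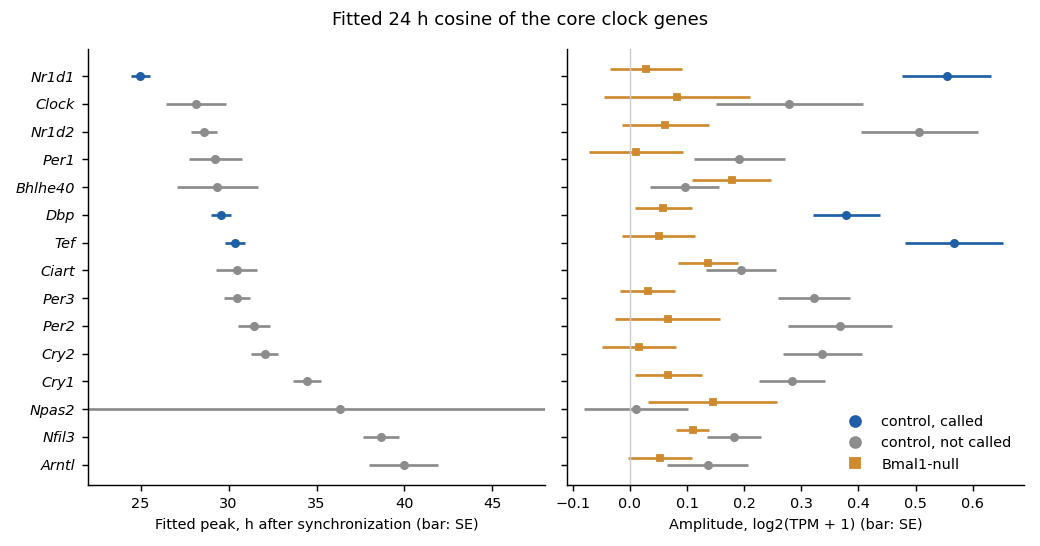
Fitted peak time in hours (left) and log2 amplitude (right) of 15 of the core clock genes tested, with SE as bars. Blue marks called genes, grey the others and orange the Bmal1-null amplitude; the bar of Npas2 runs off the axis because its amplitude is 0.01.

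The other 3 called genes lie outside the core clock. Tmem252, a membrane protein gene, had the lowest p. It was at 0.74 to 1.10 TPM in all 9 libraries up to 32 h and at 1.39 to 1.94 TPM in all 11 libraries from 36 h, with no overlap. It peaked at 40.6 h (amplitude 0.33 ± 0.04, 1.57-fold, adjusted p = 0.000253), and at such a level its fold is understated by the pseudocount of 1. Without the 5 libraries its amplitude was 0.32 (adjusted p = 0.00506). Ces1d, a carboxylesterase, ranged from 1.20 to 8.15 TPM and peaked at 36.8 h (2.29-fold, adjusted p = 0.0154). It belongs to a family of close paralogs, among which the counting could split reads. Ano1, a calcium-activated chloride channel, peaked at 28.5 h (2.38-fold, adjusted p = 0.0196), but its level fell through the series, as described below. Neither Ces1d nor Ano1 was called without the 5 libraries (adjusted p = 0.0792 and 0.0624), at amplitudes of 0.62 and 0.53 against 0.60 and 0.62 with them.

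The genes most like the clock genes in their time course were named as a description over the 12 time-point means. For Dbp they were 2310057M21Rik (Pearson r = 0.868), Mns1 (r = 0.865), Per3 (r = 0.861), Gm10052 (r = 0.851) and Tef (r = 0.849). For Nr1d1 they were Tmem102 (r = 0.831), Slc35d2 (r = 0.822), Ccdc116 (r = 0.820), Gm12854 (r = 0.813) and Tead4 (r = 0.811). The points share libraries, so no test is given.

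In Bmal1-null organoids most clock genes had a smaller amplitude. Arntl itself, the targeted gene, had a mean of 14.9 TPM ± 2.74 over control libraries against 8.67 TPM ± 1.14 without Bmal1 (SD, n = 22 each), and gene-level TPM cannot show which part was removed. Of the 16 clock genes, 14 had a lower amplitude there, among them Nr1d1 at 0.03 ± 0.06 and Per3 at 0.03 ± 0.05. The share of all genes with a lower amplitude there was not counted, so 14 of 16 is not shown to be particular to the clock. The exceptions among the 16 were Npas2 and Bhlhe40, at 0.14 ± 0.11 and 0.18 ± 0.07. The test of the difference itself was passed by 5 of 12654 genes (0.0395%), among them Dbp and Nr1d1 at adjusted p = 0.0363 each, Tmem252 at 0.0400 and Tef at 0.0410. The level of Nr1d1 was 2.39 TPM ± 0.455 in Bmal1-null against 17.01 TPM ± 5.86 in control libraries (SD, n = 22 each). Tmem252 was at 5.14 to 7.63 TPM in Bmal1-null libraries, against time-point means of 0.765 to 1.90 TPM in control. For both genes the pseudocount of 1 weighs more on the amplitude of the genotype of lower level. The count of genes that passed was 4 without the 5 libraries that stand apart, and it depends on single libraries. Removal of 1 of 6 control libraries (replicate 1 of 26 h, either of 30 or 32 h, replicate 2 of 34 h) or of 1 of 4 Bmal1-null libraries (replicate 1 of 30 h and of 34 h, both of 40 h) left 0 genes. Removal of replicate 1 of the control 24 h pair left 1 gene, as did that of replicate 2 of the Bmal1-null 34 h pair. A count of 2 was left by removing, among controls, replicate 1 of 34 h or replicate 2 of 38 or 46 h, and among Bmal1-null libraries replicate 2 of 24 or 46 h or replicate 1 of 26 h. A count of 3 was left by removing, among controls, either library of 40 h or replicate 2 of 42 h, and among Bmal1-null libraries replicate 1 of 24 or 44 h or either of 28 h. At an unadjusted p under 0.05 the test was passed by 237 genes (1.87%).

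A second comparison set the end of the series against its start. The 5 libraries of 42 to 46 h (late) were compared with the 5 of 24 to 28 h (early) in limma. Of 12570 genes, 12 were called higher late (0.0955%), among them the stem cell marker Olfm4 and the trehalase Treh. A further 14 were called lower late (0.111%), among them Ly6a, Msln and Clu of the fetal and regenerative list, 2 keratins and 2 annexins of the named genes. In bulk organoids, fewer cells of a type and less RNA per cell cannot be told apart. Without the 5 libraries that stand apart, all 12 and all 14 were still called, among 61 higher and 174 lower. At an unadjusted p under 0.05 there were 465 higher (3.70%) and 456 lower (3.63%), and in 129 genes (1.03%) the late libraries all lay above the early ones and in 121 (0.963%) below. Of the 24 genes that the naming rule gave, all 24 had a middle mean, over the 12 libraries of 30 to 40 h, between the early and late means.

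These counts rest on all 10 libraries of the windows. Without 24 h replicate 1 they were 5 higher and 6 lower, without 26 h replicate 1 they were 3 and 0, and without 26 h replicate 2 both were 0. Without 28 h replicate 2 they were 5 and 9, without 42 h replicate 1 they were 3 and 0, and without 42 h replicate 2 they were 7 and 8. Without 44 h replicate 1 or 46 h replicate 1 both were 0, and without 46 h replicate 2 they were 7 and 5. Without 24 h replicate 2 they were 11 and 13.

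Olfm4, a marker of intestinal crypt stem cells (chr14:79984081-80023139, plus strand), was at 321, 373, 378, 379 and 515 TPM early and at 647, 684, 740.4, 749 and 805 TPM late. The windows do not overlap, and the difference was 0.90 ± 0.11 on the log2(TPM + 1) scale, or 1.86-fold (limma, adjusted p = 0.0191). Lgr5, the receptor that defines these stem cells, was at 16.97, 21, 22.7, 27.1 and 32.8 TPM early and 29.7, 32.8, 34.6, 38.1 and 44.99 TPM late. Its windows overlap and it was not called (0.58 ± 0.16, adjusted p = 0.279). Of 12 stem cell genes tested, Olfm4 alone was called, and the list's median difference was 0.22 against -0.04 over all genes. Ascl2, a stem cell transcription factor, and Tnfrsf19 differed by 0.35 ± 0.14 and 0.29 ± 0.13, not called (adjusted p = 0.577 and 0.661). Of 14 Wnt targets none was called, and Sp5, a direct target of beta-catenin, was at 5.68 to 8.02 TPM early and 8.45 to 11 TPM late (0.52 ± 0.12, adjusted p = 0.143).

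The other named genes that were higher late had various roles. Treh, the brush border trehalase, was at 30.4, 32.5, 35.6, 39.3 and 41.1 TPM early and 53.1, 55.4, 56.3, 57.5 and 61.7 TPM late, 1.58-fold (adjusted p = 0.0191). Every late library of Treh was above every early one. Ephx2, an epoxide hydrolase of lipid mediators, rose 1.54-fold (adjusted p = 0.0191) and Pnliprp2, a lipase-related protein, 1.55-fold (adjusted p = 0.0214). Acot1, an acyl-CoA thioesterase with close paralogs that could share its reads, rose 1.49-fold (adjusted p = 0.0447). Tmed6, a vesicle trafficking protein, rose 1.65-fold, Dnase1l2, a DNase, 1.57-fold, and Bex1 1.51-fold (adjusted p = 0.0452, 0.0447 and 0.0330). Akr1b7, an aldo-keto reductase, Id2, an inhibitor of bHLH factors, and Sult1c2, a sulfotransferase, had the next lowest p and were not called (0.72 ± 0.13, 0.41 ± 0.07 and 0.64 ± 0.12, adjusted p = 0.0512, 0.0523 and 0.0535), though each was called without the 5 libraries (adjusted p = 0.0304, 0.0293 and 0.0402). The called genes outside the naming rule, chosen after their values were seen, were Crct1, BB123696 and the defensin pseudogene Defa-ps1.

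**Figure D3:**
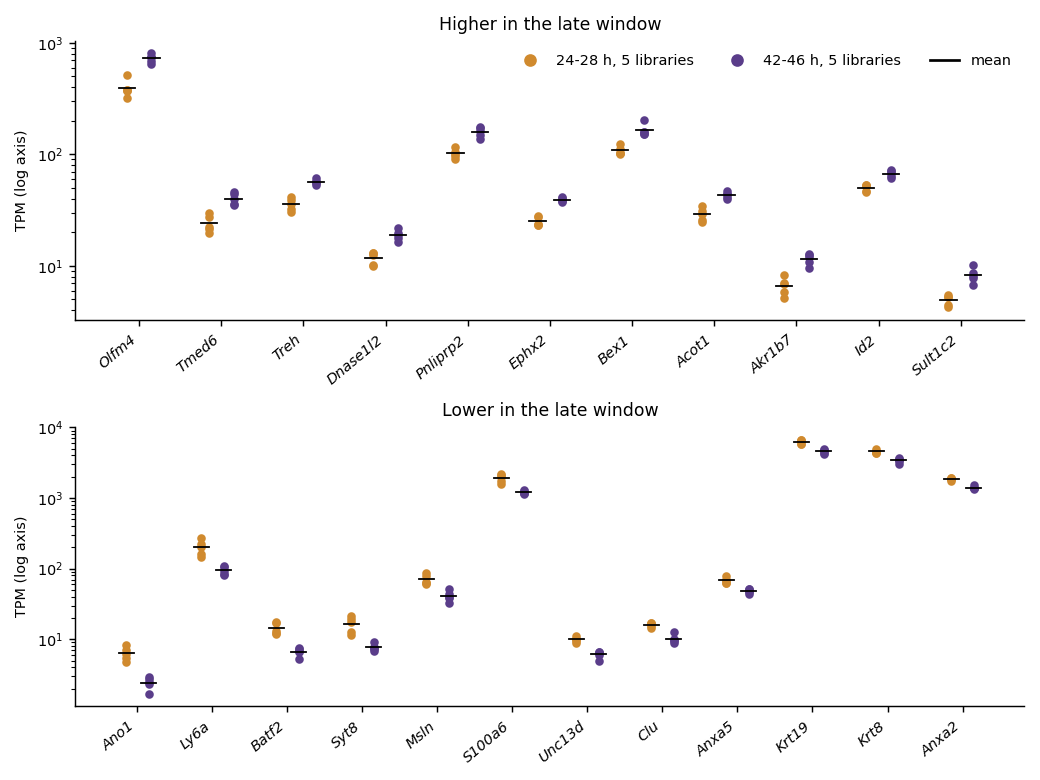
TPM on a log axis of the named genes in the 5 early libraries (orange, 24 to 28 h) and the 5 late libraries (purple, 42 to 46 h), with means as bars. The first 8 genes of the upper panel and all 12 of the lower were called, and in each of them the windows do not overlap.

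The fetal and regenerative list had the lowest median of the lists plotted. It holds genes expressed in fetal gut and in epithelium repairing after injury, and 7 of its 9 members passed the filter and were tested. Of the 7, 3 fell at the threshold (Ly6a, Msln and Clu), none rose, and in 6 the windows do not overlap, against the 0.963% of all genes. The list's median was -0.74, against -0.04 over all genes, and -0.72 without the 5 libraries. With the library set (lower- or higher-numbered of a time point) as a replicate block, 7 were called lower, among 136 lower over all genes. Ly6a, the surface protein SCA-1 (chr15:74994877-74998031, minus strand), was at 145, 161, 201, 224 and 271 TPM early and at 82.1, 84.8, 92.4, 106 and 110 TPM late, a difference of -1.04 ± 0.16 (adjusted p = 0.0235). Ly6a has close paralogs that could share its reads, and Ly6c1, called as well, was named after its values were seen. Msln, mesothelin, was at 60.8, 63.4, 64.7, 78.4 and 87.9 TPM early and 32.2, 38.9, 39.4, 43.9 and 50.7 TPM late (-0.78 ± 0.13, adjusted p = 0.0447). Clu, clusterin, which marks revival stem cells, was at 14.2, 15.6, 16.6, 16.7 and 16.9 TPM early and 8.93, 9.47, 9.79, 9.98 and 12.7 TPM late (-0.61 ± 0.11, adjusted p = 0.0447). Anxa1, an annexin, was at 106 TPM ± 34.4 early and 55.9 TPM ± 7.86 late (SD, n = 5 each) and Il1rn, the interleukin-1 receptor antagonist, at 98.5 TPM ± 27.9 and 58.1 TPM ± 13.7, neither called (adjusted p = 0.122 and 0.225). The remaining members Anxa3 and Anxa10, named after their values were seen, differed by -0.65 ± 0.14 and -0.59 ± 0.13, not called (adjusted p = 0.132 and 0.137). Of 8 YAP targets listed, a pathway of the same repair state, only 4 were tested, and Ctgf, Cyr61, Ankrd1 and Axl were not. None of the 4 was called and their median was -0.29, with Ajuba at -0.47 ± 0.15 and Areg at -0.33 ± 0.09 (adjusted p = 0.356 and 0.264).

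The other named genes lower late included keratins and annexins. Krt19 and Krt8, keratins of simple epithelium, averaged 6258 TPM ± 431 and 4569 TPM ± 245 early and 4613 TPM ± 317 and 3420 TPM ± 248 late (SD, n = 5 each). Their differences were -0.44 ± 0.08 and -0.42 ± 0.07 (both adjusted p = 0.0447), and Krt8 has processed pseudogenes that could take some of its reads. They were the 2 called of 11 intestinal epithelium markers, whose median was -0.19, and Krt20 and Hnf4a were not called (-0.32 ± 0.11 and -0.28 ± 0.18, adjusted p = 0.434 and 0.831). Anxa2 and Anxa5, calcium-dependent membrane-binding proteins, differed by -0.41 ± 0.06 and -0.49 ± 0.08 (adjusted p = 0.0214 and 0.0447). S100a6, a calcium-binding protein, went from 1919 TPM ± 266 to 1221 TPM ± 66.4 (-0.64 ± 0.10, adjusted p = 0.0235). Ano1 was at 4.74, 5.39, 6.18, 7.02 and 8.41 TPM early and 1.70, 2.33, 2.47, 2.74 and 2.92 TPM late, with no overlap (-1.09 ± 0.15, adjusted p = 0.0191). Batf2, a bZIP factor, and Syt8, a synaptotagmin, differed by -0.998 ± 0.13 and -0.98 ± 0.16 (adjusted p = 0.0191 and 0.0447), and Unc13d, which primes secretory granules, by -0.62 ± 0.11 (adjusted p = 0.0452). Krt6a, a stress keratin, was also called and was named after its values were seen, with a mean of 2.29 TPM early and 0.456 TPM late.

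**Figure D4:**
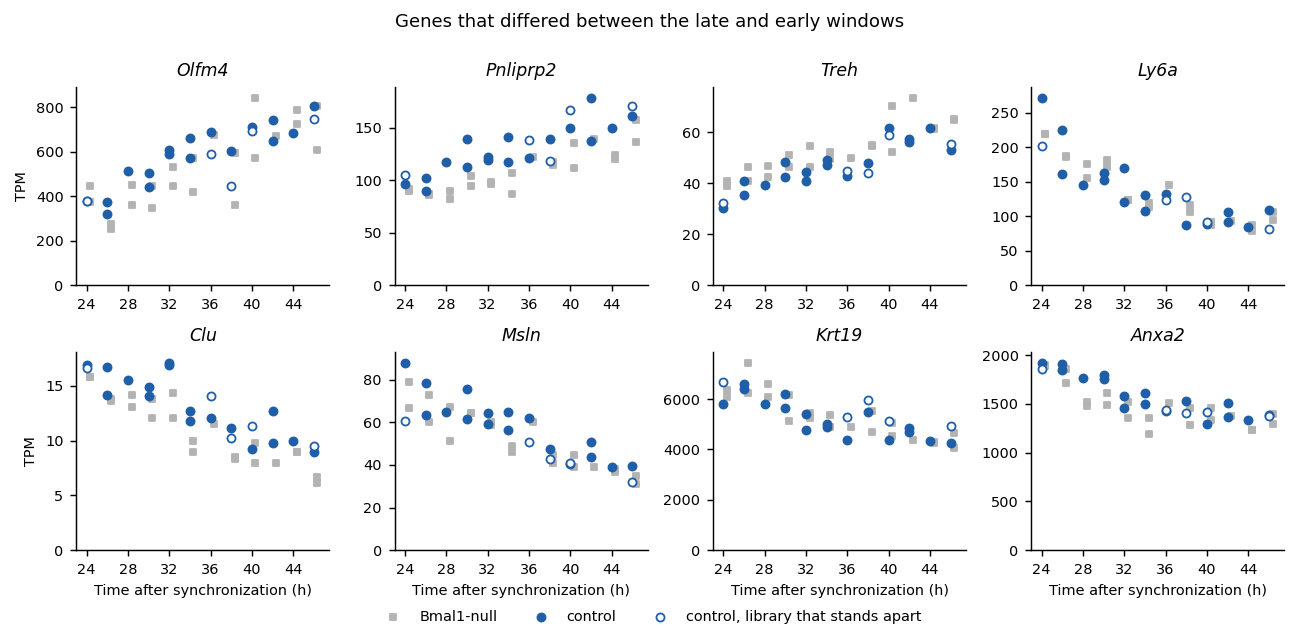
TPM of 8 genes named for the late against early comparison in every library by time after synchronization. Filled circles are control libraries, open circles the 5 that stand apart and grey squares Bmal1-null libraries. In control organoids Olfm4 runs from 321 TPM at its lowest early library to 805 TPM late, and Ly6a from 271 to 82.1 TPM.

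Few genes of the differentiated lineages were called, as was the case over all genes (0.0955% higher and 0.111% lower). Of 12 Paneth cell genes none was called, but every difference was above 0 (0.21 to 0.66). Their median difference was 0.36, the highest of the lists plotted. Defa26 and Defa17, alpha-defensins whose near-identical copies could split reads, differed by 0.66 ± 0.18 and 0.51 ± 0.18, and Defa22 and Pla2g2a by 0.46 ± 0.18 and 0.40 ± 0.13, with adjusted p from 0.272 to 0.577. Defa17 was called without the 5 libraries (0.52, adjusted p = 0.0329). Goblet genes split, with the mucin Muc2 at -0.46 ± 0.19 and Spink4 at 0.37 ± 0.16, and of 10 none was called (adjusted p = 0.601 and 0.629). Of 14 enteroendocrine genes none was called, with the hormone Cck at -0.51 ± 0.12 and Reg4 at 0.48 ± 0.14 (adjusted p = 0.155 and 0.287). Of 19 brush border genes Treh alone was called, and Mep1a, meprin A, differed by 0.41 ± 0.26 (adjusted p = 0.827). With the library set as a replicate block, 7 Paneth genes were called higher and 0 lower, among 122 higher and 136 lower over all genes. The goblet list then had 1 higher and 2 lower, and the enteroendocrine and brush border lists 1 higher and 0 lower each.

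The lipid absorption and bile acid lists had medians of 0.08 and -0.12, near the -0.04 of all genes, and single members differed more, with wide errors. Apoa4, an apolipoprotein of chylomicrons, was at 180, 203, 496, 562 and 628 TPM early and 562, 660, 676, 1268 and 1342 TPM late, overlapping (1.21 ± 0.38, adjusted p = 0.352). Apoc3 was at 58.02 to 141 TPM early and 143 to 314 TPM late (0.97 ± 0.25, adjusted p = 0.236). Scarb1, a lipid receptor, and Apob, the core protein of chylomicrons, differed by -0.76 ± 0.27 and 0.37 ± 0.13 (adjusted p = 0.455 and 0.419), and of 14 lipid absorption genes none was called. Fgf15, the ileal hormone that restrains bile acid synthesis, was at 6.57 to 15.9 TPM early and 3.37 to 5.38 TPM late, and Fabp6, the ileal bile acid binding protein, at 433 to 735 TPM and 238 to 416 TPM. The windows of Fgf15 and Fabp6 do not overlap, yet neither was called (-0.85 ± 0.21 and -0.58 ± 0.17, adjusted p = 0.206 and 0.317), and neither was any other of the 6 bile acid genes. With the library set as a replicate block, 3 of the 6 were called lower and 0 higher, and of the lipid absorption genes 3 higher and 1 lower. Among 14 PPAR targets and fatty acid oxidation genes 1 was called, and Acaa1b, a peroxisomal thiolase, differed by 0.76 ± 0.24 (adjusted p = 0.354).

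No glucocorticoid response, immediate early or NRF2 gene was called with all libraries. Of 15 glucocorticoid response genes none was called and the median was 0.04, with the metallothioneins Mt1 and Mt2 at 0.41 ± 0.13 and 0.35 ± 0.10 (adjusted p = 0.349 and 0.326). Of 10 immediate early genes none was called, with Fos at -0.41 ± 0.12 and Egr1 at -0.21 ± 0.12 (adjusted p = 0.336 and 0.790). Of 11 NRF2 targets none was called and the median was -0.19, with the glutathione transferase Gsta1, whose windows do not overlap, at -0.40 ± 0.10 and Nqo1 at -0.34 ± 0.13 (adjusted p = 0.199 and 0.541). Without the 5 libraries Fos and Gsta1 were called (adjusted p = 0.0454 and 0.0323), and Sp5 as well (adjusted p = 0.0431). No gene was called among 17 for DNA replication (median -0.02), 18 for mitosis (median -0.05), 14 p53 targets (median -0.09), 19 for cholesterol synthesis (median -0.09) or 18 for glycolysis and hypoxia (median 0.05, with Bnip3 at 0.36 ± 0.19 and Ankrd37 at 0.33 ± 0.16, adjusted p = 0.763 and 0.744). Among 16 clock genes none was called in this comparison, and Nr1d1 had the largest difference, at -0.52 ± 0.12 (adjusted p = 0.155).

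**Figure D5:**
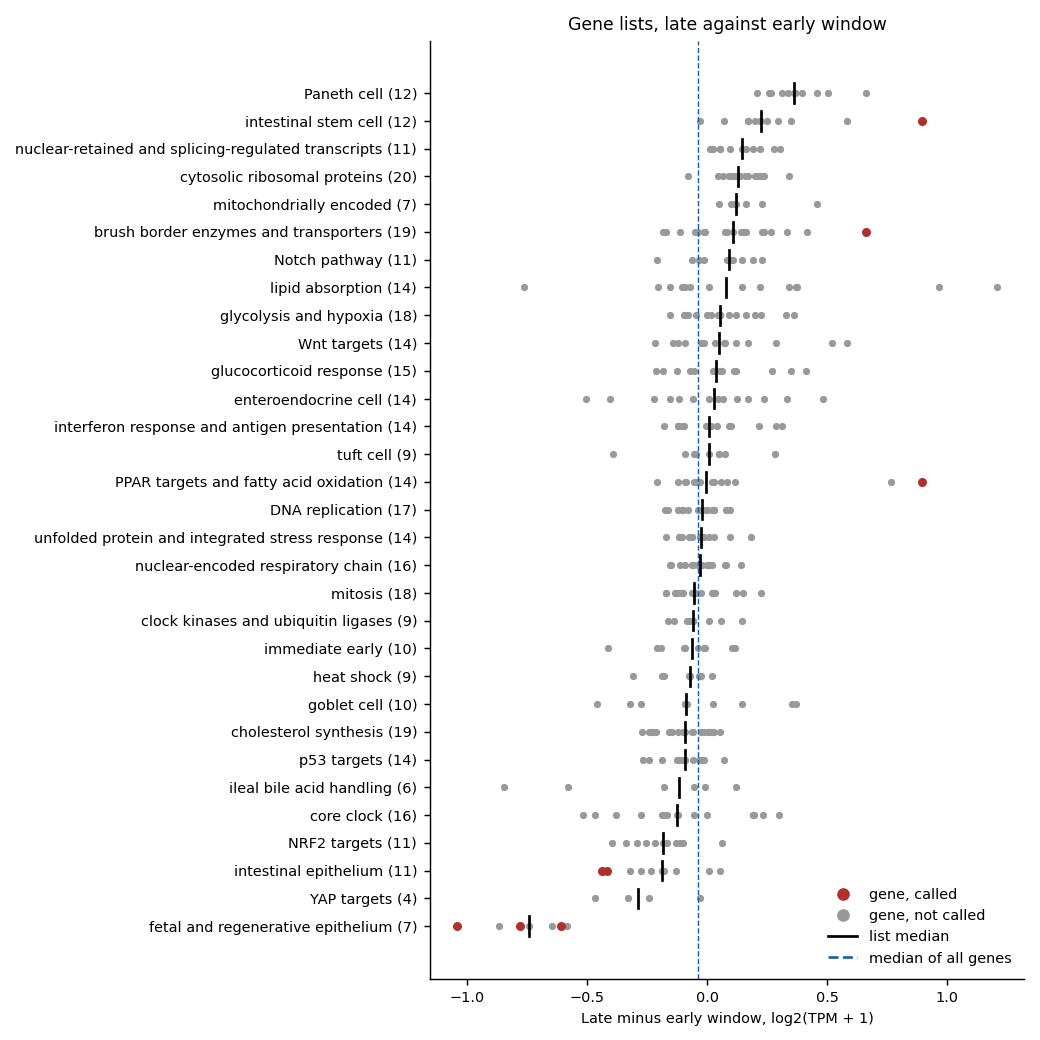
Late minus early difference in log2(TPM + 1) of every tested gene of each list with 4 or more tested members, with the number tested in brackets. Red points are called genes, black bars list medians and the dashed line the median of all genes, -0.04. The fetal and regenerative list lies lowest at -0.74 and the Paneth list highest at 0.36.

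The genes called late had the same sign without Bmal1. The Bmal1-null libraries share no sample with the control ones, and there 784 genes were called higher late (6.25%) and 439 lower (3.50%). Library numbers rise with time in the Bmal1-null titles as well, so library order and time cannot be told apart in either genotype. Of the 12 control genes higher late, 11 were tested there, 11 had the same sign and 9 were called. Of the 14 lower, 13 were tested, 13 had the same sign and 13 were called. The median differences were 0.69 in control and 0.64 in Bmal1-null for the higher genes, and -0.67 and -0.83 for the lower. Over all genes the medians were -0.04 and 0.04, and 8233 of 12466 genes tested in both had the same sign. Olfm4 differed by 1.02 there (limma, adjusted p = 0.00259), Ly6a by -1.04 (adjusted p = 0.000208) and Clu by -0.83 (adjusted p = 0.000907). The fetal list's median was -0.67, with 6 of its 7 tested genes called lower. Bex1 was not called there (0.32, adjusted p = 0.132). The test of the difference between genotypes was passed by 0 of 12654 genes in limma, with 499 (3.94%) at an unadjusted p under 0.05. The lowest adjusted p was 0.910 over all genes and among those 24 late genes alike, so it does not set the 24 apart. A count of 0 does not show that the late changes of the genotypes are equal. Without the 5 libraries 0 genes passed as well. In Bmal1-null organoids brush border genes had a median of 0.43 with 6 of 19 called higher, against 0.11 with 1 of 19 called higher in control. This difference between the genotypes was not tested as a list.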

How the data were processed

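Libraries were made with a directional kit from total RNA, per the labels. TPM values per gene were deposited by the authors, 1 table per genotype, and STAR 2.5, RSEM 1.3.0 and build GRCm38 are named, with no role given, in the submitters' processing notes. A quantile-normalized TPM signal table deposited by the authors served as an alternative. The aligner's log of each library, with each read count and percent, was deposited by the authors as a table. Of 24 labelled control libraries 22 are in the TPM table, and the other 2 (18.4 and 30.1 M uniquely mapped reads) were not used here.

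Tests used limma 3.58.1 (R 4.3.3, variance trend) on log2(TPM + 1) for genes averaging at least 1 TPM, with Benjamini-Hochberg adjustment over all genes at 0.05. TPM keeps no depth per gene, so no counting interval is given. Symbols came from GENCODE M21 (55450 of 55536 gene IDs). The fits were tested on simulated data with noise drawn independently for each gene, so shifts shared by many genes of a library were not simulated. At a simulated 1.5-fold change the cosine fit recovered 52% of changed genes and the late comparison 46.5%. At 2-fold they recovered 89% and 84%. False calls made up 1.06 to 8.77% of calls over the simulated settings. Members, lists and tests were chosen with earlier results of these data known. Named genes were the core clock genes, the 10 of lowest rhythm p with a swing of 1.5-fold or more, and up to 12 late differences in each direction among genes of 5 TPM or more with windows that do not overlap, without predicted genes. Where fewer than 12 were called, those of next lowest p followed. Up to 4 members were named of each list described. A few genes counted in the totals are not reported here by name. Alternatives were other pseudocounts, filters, scalings, windows, covariates, model terms and left-out libraries. The removal of the 5 libraries that stand apart and the length slope covariate were chosen after seeing the data.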

Additional observations from a re-analysis of the deposited data

Results flagged for a closer look

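In 154 sets of 5 libraries (77 genes, early and late windows), 9 held a library far from the other 4 by Dixon's criterion, or 5.84%, where chance gives about 1 in 20. The highest late library stood out for Bex1 (202.18 TPM), Clu (12.72 TPM) and Defa17 (1241.68 TPM), and the highest early library for Fabp6 (734.94 TPM). The lowest library stood out for Fgf15 late (3.37 TPM), Hnf4a early (334.32 TPM), Per1 early (18.77 TPM) and late (17.9 TPM), and Per2 late (7.13 TPM).

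The 24 h cosine differed between control and Bmal1-null organoids for Dbp and Nr1d1 (adjusted p of the difference 0.0363 each, limma), Tmem252 (0.04) and Tef (0.041). These calls depend on single libraries and on the filter. Leaving out 1 library left 0 to 5 genes that passed, and no filter on low values left 0.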

How the results depend on the processing

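Of 700 amplitudes, which have no sign, recomputed for 22 genes, 629 kept their side of the threshold, 21 lost it and 50 gained it. Of 1795 late differences for 58 genes, 1543 kept it, 187 lost it and 65 gained it, and 0 changed sign. Where counts moved by over 1.5 times, the cause was not tested. Against 7 rhythmic genes, 4 of them clock genes, and 12 higher and 14 lower late, no filter gave 11 rhythmic, 1 higher and 0 lower, and 0 for the rhythm difference from Bmal1-null, which a pseudocount of 0.1 put at 3. A filter of 5 TPM gave 4 rhythmic. Median-of-ratios scaling gave 35 rhythmic, 8 clock, 23 higher and 23 lower, with 194 lower genes without overlap. The quantile-normalized table gave 45, 9, 26 and 27. The uniquely mapped percent as a covariate gave 76 higher and 87 lower. The length slope covariate gave 52 rhythmic, 10 clock, 116 higher and 68 lower, and removal of the 5 libraries 61 higher and 174 lower. Lower-numbered libraries alone gave 0 rhythmic, 0 clock, 42 higher and 84 lower, and higher-numbered ones 0, 0, 0 and 0. Windows of 24 to 26 and 44 to 46 h gave 2 higher and 0 lower, with 338 and 435 genes without overlap. A linear time term gave 4 rhythmic, and time as a factor 2. A slope over 22 libraries gave 122 higher and 154 lower, and a fit of 3 windows 35 and 25. Leaving out 1 library gave 4 (without 30 h replicate 1) to 50 (without 46 h replicate 2) rhythmic, with 12 without 46 h replicate 1, and 2 (without 30 h replicate 1) to 5 (without 38 h replicate 1) clock genes. It gave 0 to 12 higher, 0 to 14 lower, 0 to 5 for the rhythm difference and 0 for the late difference.

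With the library set (lower- or higher-numbered of a time point) as a replicate block, 289 genes were rhythmic, 9 of them clock genes, with 122 higher and 136 lower late. Of the lists, 7 Paneth genes were then called higher, and 7 fetal and regenerative and 3 bile acid genes called lower, against 0, 3 and 0 without it. The labels do not say that the sets are the 2 lines. The difference between sets correlated between time points with r from -0.524 to 0.792 (median 0.327, 45 pairs).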
